A study of Homo sapiens with 9 samples.

Results

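The libraries compared here came from HEK293T cells and were made with anchored oligo(dT) primers of increasing anchor length: T18V, T18VN and T18VNN. They are the 3 samples of the series whose titles name a primer with anchor bases, out of 9 samples in all, of which 7 had gene counts. HEK293T, a line derived from human embryonic kidney that carries the SV40 large T antigen, was wild type and grown without any stated treatment, and its total RNA was taken into CLT-seq, a reverse transcription and ligation protocol. The T12, T18 and T30 libraries of the same line, whose primers carry no anchor, were used as the background range. Each primer had 1 library, so no primer had a replicate, and the labels give neither a sequencing batch nor a date.

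An oligo(dT) primer pairs with runs of A, chiefly the poly(A) tail that is added to the 3′ end of most messenger RNAs. An anchor is a stretch at the 3′ end of the primer that starts with a base other than T, and it favours priming where the tail meets the body of the transcript. Small nuclear RNAs (snRNAs), nucleolar RNAs (snoRNAs), Cajal body RNAs (scaRNAs) and Y RNAs are made without a stable poly(A) tail, though short oligo(A) additions occur during their processing and decay.

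The primers share an adaptor part and a run of 18 T, which is also the whole of the unanchored primer T18, and it is shown because the anchor that follows it is the only designed difference between the libraries. Capitals mark the T run.
T18: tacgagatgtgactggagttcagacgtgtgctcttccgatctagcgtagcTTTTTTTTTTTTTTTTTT
T18V adds V, which stands for A, C or G, to the 3′ end of this sequence, T18VN adds V and N, where N is any base, and T18VNN adds V and another pair of N. The anchor has 1 base in T18V, 2 in T18VN and 3 in T18VNN, which gives 3, 12 and 48 different primer ends. The series text lists the primer with 2 anchor bases as T12VN, but its T run has 18 bases, as its sample title says.

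The libraries differed in ways that the anchor does not define. Library totals were 7491993 reads for T18V, 15955229 for T18VN and 12963360 for T18VNN, of which 2810511 (37.5%), 4480300 (28.1%) and 3596026 (27.7%) fell on genes. The T18VNN library stood apart in its coverage along transcripts: 33.7% of its deposited coverage lay in the 20 percentiles of the transcript body nearest the 5′ end and 39.9% in the 20 nearest the 3′ end. The corresponding values were 2.64% and 61.9% in T18V, and the unanchored primers had 2.61% to 3.16% nearest the 5′ end. Coverage of T18VN was not used here. The part of this difference, and of depth, in the results was not tested, and neither can be told apart from the primer with 1 library each. Markers of HEK293T (10 genes) summed to 4021 to 5495 CPM, the reads of a gene scaled to a common total of gene reads, in the anchored libraries and 302 CPM in the A549 library, and 12 markers of A549, the other line of the study, to 1.79 to 8.90 CPM against 17436 CPM. Blood cell markers (7 genes) summed to at most 1.78 CPM in the anchored libraries.

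The snRNA, H/ACA snoRNA, scaRNA and ribosomal RNA classes took a larger share of gene reads with each added anchor base. The C/D snoRNA and Y RNA classes did not follow that order. The snRNA share was 0.166% (95% Wilson interval 0.162 to 0.171) in T18V, 0.273% (0.268 to 0.278) in T18VN and 0.421% (0.414 to 0.428) in T18VNN, and the unanchored libraries lay between 0.0252% and 0.215%. H/ACA snoRNAs, which guide pseudouridylation of ribosomal RNA, took 0.0393% (0.0371 to 0.0417), 0.136% (0.132 to 0.139) and 0.294% (0.289 to 0.300). Their unanchored range was 0.0492% to 0.0534%, so T18V lay below it. For both classes each added base went with a higher share, T18VN and T18VNN lay above all 3 unanchored libraries, and the Wilson intervals of the 3 anchored libraries did not overlap. These intervals cover counting error only. The snRNA class is that of the RefSeq gene table, which also places the SNAR RNAs in it. The snRNA order was not shared by all members of the class. SNAR-B1, SNAR-B2 and SNAR-E held 4062 of 4672 snRNA reads in T18V and 10712 of 12219 in T18VN, but 2090 of 15144 in T18VNN. The SNAR-A copies held 273 reads in T18VN and 6045 in T18VNN, and RNU4-1 and RNU4-2 together held 126 and 4131.

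The other classes gave a less simple picture. C/D snoRNAs, which guide 2′-O-methylation of ribosomal RNA, took 0.276% in T18V, 0.208% in T18VN and 0.272% in T18VNN. Without SNORD50A, which alone held 6586 of the 7757 C/D reads in T18V, the shares were 0.0417%, 0.106% and 0.209%, in the order of the anchor. The scaRNAs, which guide the modification of snRNAs in Cajal bodies, took 0.0266%, 0.112% and 0.140%, but T30, a primer without an anchor, gave 0.127%. Y RNAs, the partners of the Ro60 protein, were highest in T18VN, with 0.0190%, 0.0970% and 0.0672%. Their unanchored range of 0.0451% to 0.117% held T18VN and T18VNN and lay above T18V. Ribosomal RNA entries took 0.203%, 0.285% and 0.398%, and the unanchored libraries, between 0.356% and 0.404%, lay at the T18VNN level. MicroRNA entries took 0.0590%, 0.0591% and 0.0593%, nearly level. Protein-coding genes held 96.99%, 96.47% and 95.97% of gene reads. Long noncoding RNAs held 1.62%, 1.64% and 1.73%, but as a share of the library total they were lower in T18VNN than in T18V (a ratio of 0.790).

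**Figure D1:**
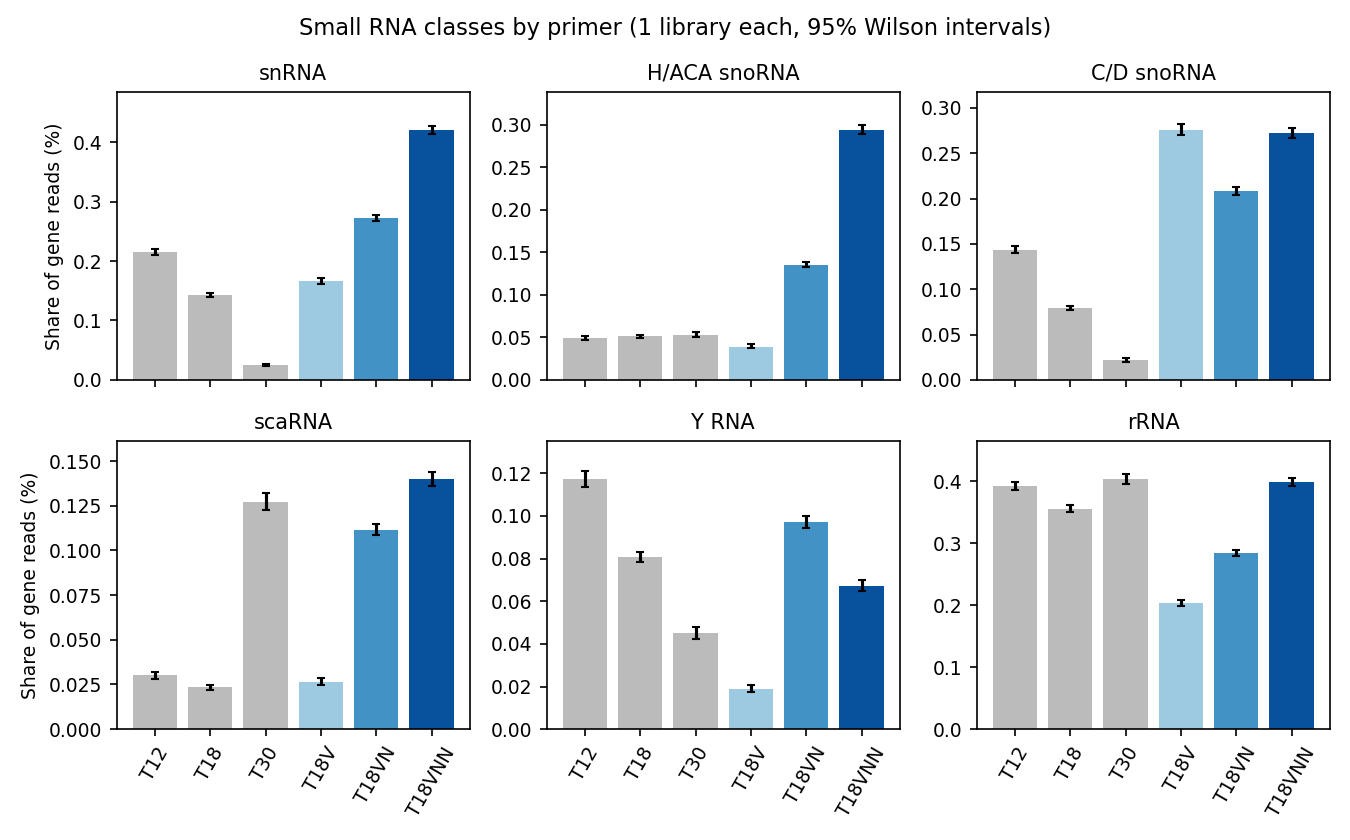
Share of gene reads (%) taken by 6 RNA classes in each of the 6 HEK293T libraries, with unanchored primers in grey and anchored primers in blue; bars are single libraries and error bars are 95% Wilson intervals for counting error. The snRNA, H/ACA snoRNA, scaRNA and rRNA bars are ordered T18V, T18VN, T18VNN, while Y RNA is highest among the anchored libraries in T18VN at 0.0970%.

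Genes were then described one by one. A gene was called ordered when its level went the same way in both steps, T18V to T18VN and T18VN to T18VNN, and differed at least 2-fold between the ends on log2(CPM + 1), among the 8264 genes with at least 50 reads in the highest of the 3 libraries. Of these, 643 (7.78%) were ordered upward and 440 (5.32%) downward. The same rule on the oligo(dT) lengths T12, T18 and T30 gave 680 (8.54%) upward and 1020 (12.8%) downward of 7966 genes, so a gene count of this size is not particular to the anchor. At the edge of the rule, ARF4 (1.01) and CBR1 (1.00 downward) lay just inside 1 on the log2 scale and SNRPA1 and SLC38A7 just outside (both 1.00 after rounding).

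The small RNA classes held a larger share of upward ordered genes than all genes did, given here as a description. Of 76 snRNA, snoRNA, scaRNA, Y RNA, ribosomal RNA and microRNA genes with 50 reads, 34 (44.7%) were ordered upward and 2 downward. By class the upward counts were 7 of 24 snRNAs, 9 of 14 H/ACA snoRNAs, 9 of 14 C/D snoRNAs, 8 of 10 scaRNAs, 0 of 4 Y RNAs, 1 of 3 ribosomal RNA entries and 0 of 7 microRNAs, of which 1 was ordered downward. Of the 24 genes classed as snRNAs, 12 are SNAR-A copies and 3 are SNAR-B1, SNAR-B2 and SNAR-E. Of the 76, 24 reached 50 reads only in T18VNN, so that they could pass only where they were high. With 50 reads required in T18V or T18VN, a minimum chosen after seeing the data, 24 of 52 small RNA genes were ordered upward (46.2%), against 547 of 7894 genes in all (6.93%). Protein-coding genes gave 584 of 7870 (7.42%) upward and 409 (5.20%) downward, and lncRNAs 20 of 228 upward and 23 downward. From T18V to T18VN, 12 of 14 H/ACA snoRNAs, 12 of 14 C/D snoRNAs and 10 of 10 scaRNAs were already higher. The snRNA count was 11 of 24. These counts have no fold minimum, and the genes were chosen with T18VNN among the libraries. All 8264 genes leaned upward at this step too, with a median log2 ratio of 0.07. Of them, 1419 were at least 2-fold higher in T18VN and 580 at least 2-fold lower. At the last step 20 of 24 snRNAs were higher in T18VNN than in T18VN, 12 of them copies of SNAR-A. Of the 24, 16 reached 50 reads only in T18VNN, so the choice of genes places these higher at this step.

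**Figure D2:**
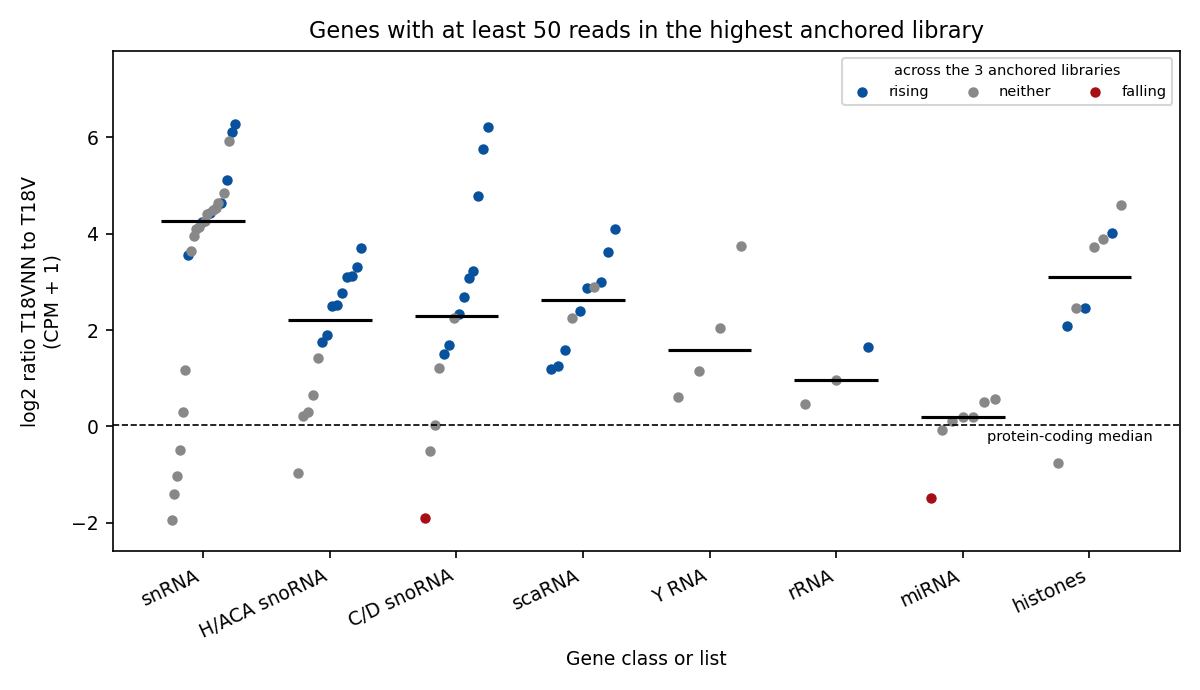
Log2 ratio of T18VNN to T18V (on CPM + 1) for each gene with at least 50 reads in the highest anchored library, by RNA class and for replication-dependent histone genes; points are genes, bars are class medians and the dashed line is the protein-coding median of 0.03. Of the 24 snRNA points, 16 reached 50 reads only in T18VNN, 12 of them near-identical SNAR-A copies, so the snRNA bar of 4.26 follows the choice of genes (the median of the other 8 is -0.10); all scaRNA points are above 1.1.

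No gene passed the test for a slope on anchor length. The edgeR quasi-likelihood fit used the 6 HEK293T libraries with primer class as a term, so that the 3 unanchored libraries supplied most of the spread and primers stood in for replicates (3 residual degrees of freedom). It called 0 of 11736 genes (0%) at a Benjamini-Hochberg adjusted p of 0.05, while 257 genes had an unadjusted p under 0.05 with a positive slope (2.19%) and 151 with a negative one (1.29%). DESeq2 on the same design called 20. Among tested small RNAs, unadjusted p values under 0.05 with a positive slope were found for 16 of 27 snRNAs, 7 of 22 H/ACA snoRNAs, 6 of 20 C/D snoRNAs and 3 of 16 scaRNAs, and 0 in these 4 classes had a negative one. All 12 tested SNAR-A copies and all 4 tested U3 copies are among these, and without these near-identical copies the counts were 4 of 15 snRNAs and 2 of 16 C/D snoRNAs. Of the genes in the slope test, RN7SK, SNORD3B-1, SNORD3B-2, SNORA12 and RFPL1S each had an edgeR adjusted p of 0.195. RFPL1S, a lncRNA that overlaps another gene, had 4, 63 and 450 reads in the anchored series and at most 1 read in each unanchored library.

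The T18VNN library was next set against T18V and T18VN together. In edgeR, 5 of 12995 genes (0.0385%) passed at an adjusted p of 0.05, all higher in T18VNN: RNU4-1, RNU4-2, RN7SK, RNU5D-1 and PDE6B. All but PDE6B are small nuclear RNAs. At an unadjusted p under 0.05 there were 168 genes higher (1.29%) and 177 lower (1.36%), of which 18 and 1 were among the 33 tested snRNAs. All 12 tested SNAR-A copies are among the 18 higher snRNAs. These copies are near-identical, so the 18 are not independent observations. The lone T18VNN library is assumed to vary like the others. The filter on low counts in this fit let in genes that were high in T18VNN only. PDE6B and RNU5D-1, which were not in the slope test, entered this one only through T18VNN. With T18V or T18VN left out of the fit no gene passed, and without T18 the count was 17.

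Annotated 3′ ends of the small RNAs that carry these results are shown because an oligo(dT) primer needs A residues to pair with. Each line gives the last 30 bases of the annotated transcript (GENCODE release 29, GRCh38), 5′ to 3′, with the first of the longest runs of A in that stretch in capitals.
RNU4-1: actggcAAtttttgacagtctctacggaga
RNU4-2: attggcAAtttttgacagtctctacggaga
RN7SK: gAggcgctgcatgtggcagtctgcctttct
RNU5D-1: AAttttttgaagccctatgttggtggggtt
RNU5A-1: AAttttttgaggccttgctttggcaaggct
RNU6-1: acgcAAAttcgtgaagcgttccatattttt
SNORD3B-1: gtgagagggagagAAcgcggtctgagtggt
SNORA12: ttcctgcatcagagAAtggctcccacatgt
SNORA79: gttctctgAAAtttgcggaatcaaacatgt
These stretches lie at chr12:120293097-120293126 (minus strand), chr12:120291763-120291792 (minus), chr6:52995919-52995948 (plus), chr1:44731055-44731084 (minus), chr15:65296137-65296166 (plus), chr15:67839939-67839968 (minus), chr17:19062099-19062128 (plus), chr10:100237156-100237185 (minus) and chr14:81202695-81202724 (minus). None ends in more than 1 A, and the longest run of A anywhere in these 9 transcripts is 3 or 4 bases. Some of these transcripts differ in length from the entries that were counted. The lengths are 141 against 144 nt for RNU4-1, 328 against 332 for RN7SK and 116 against 100 for RNU5D-1. They are 116 against 117 nt for RNU5A-1 and 107 against 106 for RNU6-1. For these genes the end shown may not be that of the counted entry. The 141 bases of RNU4-1 and RNU4-2 differ at 4 positions (97.2% identity), so reads may be divided between them, whereas RNU5D-1 and RNU5A-1 share 81.9%.

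The U4 snRNA, which pairs with U6 and holds it inactive until the spliceosome is activated, had among the largest ratios: RNU4-2, at 6.28 on the log2 scale, led the ordered genes that overlap no other. RNU4-1 (chromosome 12, 120730897 to 120731040, hg19) had 23 reads in T18V, 79 in T18VN and 2269 in T18VNN, against 35, 40 and 3 in T12, T18 and T30. RNU4-2 (chromosome 12, 120729566 to 120729706) had 16, 47 and 1862 reads, against 24, 70 and 7. In both genes T18VNN stood alone: T18V lay within the unanchored range of CPM values for both, and T18VN did so for RNU4-2. RNU4-1 was at 8.18, 17.6 and 631 CPM in the 3 anchored libraries, and its contrast of T18VNN with the others was 5.57 on the log2 scale (SE 0.78, edgeR adjusted p = 0.0330). RNU4-2 was at 5.69, 10.5 and 518 CPM, with a contrast of 5.96 (SE 0.73, edgeR adjusted p = 0.0111).

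RN7SK, the 7SK RNA that keeps the elongation factor P-TEFb inactive, followed the same pattern. It lies on chromosome 6 (52860418 to 52860749, hg19) and had 30, 77 and 1454 reads in T18V, T18VN and T18VNN, and 39, 37 and 26 reads in T12, T18 and T30. Its level was 404 CPM in T18VNN and at most 17.2 CPM in every other HEK293T library, and the contrast was 4.83 (SE 0.58, edgeR adjusted p = 0.0111). The counting interval of its T18VNN to T18V ratio of 37.9 ran from 26.4 to 56.4.

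The U5 snRNA, which aligns the exons for ligation, differed between its gene copies. RNU5D-1 (chromosome 1, 45196741 to 45196840, hg19) had 2, 3 and 373 reads in the anchored series and 0, 3 and 0 in the unanchored libraries, and its contrast was 7.14 (SE 1.03, edgeR adjusted p = 0.0350). RNU5D-1 entered that test only through T18VNN, where it was high. RNU5A-1 had 19, 1 and 59 reads and RNU5B-1 had 41, 65 and 65. RNU5F-1, which overlaps another gene, was lowest in T18VNN, with 181, 561 and 112 reads. Of these 4 copies only RNU5D-1 passed, and the difference between copies was not tested.

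RNU6-1, a copy of U6, which forms part of the catalytic centre of the spliceosome, had 100 reads in T18VNN and 0 in each of the other 5 libraries, which is at least 26.1-fold higher than in T18V when set against a floor of 3 reads per library. The edgeR contrast for RNU6-1 was 9.55 (SE 2.19, adjusted p = 1). The other U6 copies reached at most 12 reads in any library. Copies of U1, which recognises the start of the intron, stayed low too: over 13 copies no library gave any of them more than 76 reads, and T18VNN gave at most 24. RNU4ATAC, the U4 counterpart of the minor spliceosome, had 37, 229 and 599 reads, with a level in T18VNN of 167 CPM against 12.2 to 30.7 CPM in the unanchored libraries. RNU4ATAC overlaps another gene, and its contrast did not pass (2.35, SE 0.75, edgeR adjusted p = 1).

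The SNAR RNAs, small transcripts of chromosome 19 that bind the NF90 protein, divided by subfamily. Across 14 SNAR-A copies the reads per copy ran from 0 to 36 in T18V, 0 to 40 in T18VN and 1 to 956 in T18VNN, and from 0 to 62 in the unanchored libraries. All 12 copies with 50 reads were at least 2-fold higher in T18VNN than in both other anchored libraries. However, all 12 reached 50 reads only in T18VNN, so the choice of genes largely sets this count. SNAR-A6 had 12, 20 and 469 reads and SNAR-A7 had 13, 13 and 500. SNAR-B1 and SNAR-E went the other way: SNAR-B1 had 2100, 5168 and 1013 reads and SNAR-E 1224, 3348 and 402. As shares of gene reads, SNAR-A copies took 0.00761%, 0.00609% and 0.168%, and SNAR-B1, SNAR-B2 and SNAR-E together 0.145%, 0.239% and 0.0581%. No SNAR gene passed the edgeR contrast at an adjusted p of 0.05 (SNAR-A6 4.87, SE 1.12, edgeR adjusted p = 1). The SNAR-A copies are near-identical, so the reads of a single copy are uncertain and the copies are not independent observations.

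**Figure D3:**
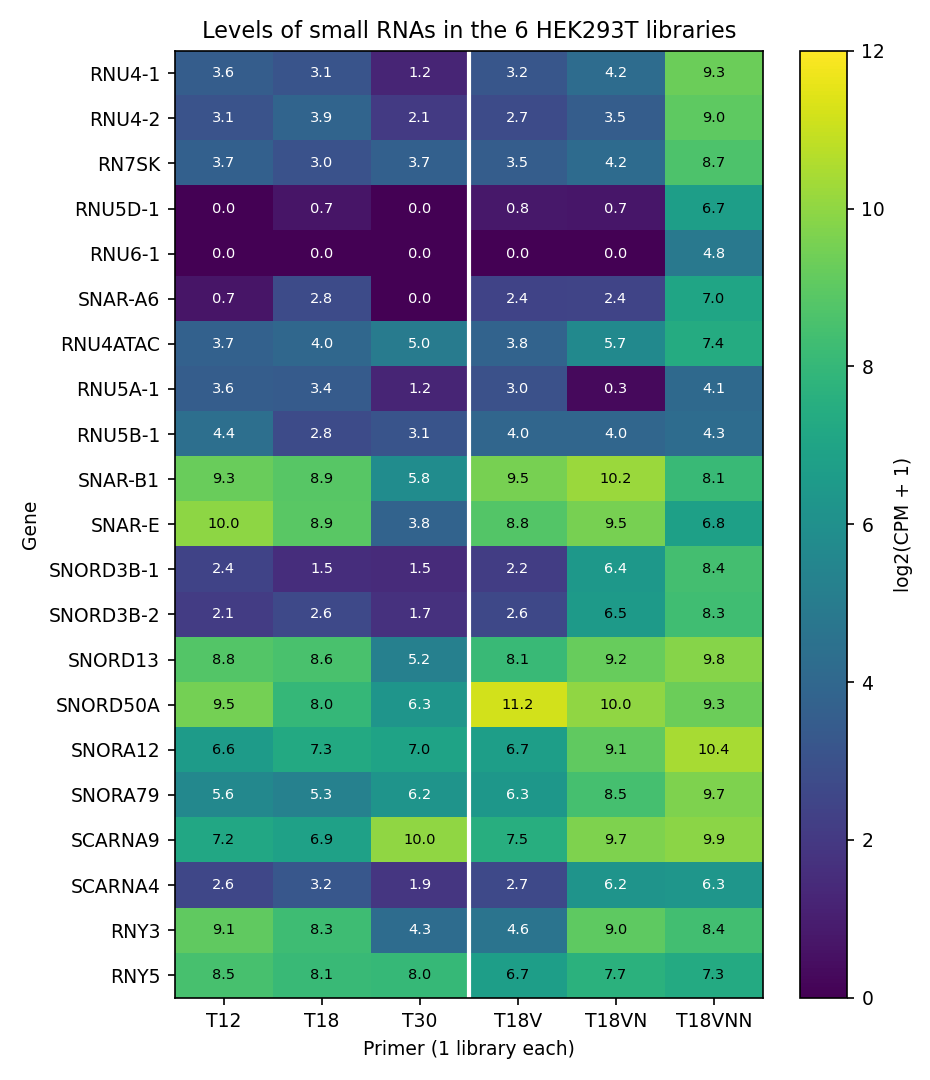
Levels of 21 small RNAs, as log2(CPM + 1), in the 6 HEK293T libraries, 1 library per column, with the unanchored primers to the left of the white line. The first 6 rows are bright in the T18VNN column only, SNAR-B1 and SNAR-E are darkest in T18VNN among the anchored columns, and the SNORD3B, SNORA and SCARNA rows brighten already in T18VN.

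In SNORD3B-1, SNORD3B-2, SNORD3C, SNORD13, SNORD50A, SNORD57, SNORA12 and SNORA79 the first step, T18V to T18VN, was the larger in size on the log2 scale. Other snoRNAs had the larger step from T18VN to T18VNN. SNORD79 had log2 steps of 0.65 and 2.42, and SNORA41 of 1.23 and 1.87. U3, encoded by the SNORD3 genes and needed for the first cleavages of the ribosomal RNA precursor, showed the widest span. SNORD3B-1 (chromosome 17, 18965225 to 18965441, hg19) had 10 reads in T18V, 372 in T18VN and 1214 in T18VNN, and SNORD3B-2 had 14, 412 and 1159. The unanchored libraries gave 4 to 14 and 5 to 27 reads for these copies. The log2 ratio of SNORD3B-1 was 4.204 for the first step and 2.01 for the second. The annotated sequences of both copies are identical over 217 bases, so their separate counts are uncertain. SNORD3C had 16, 128 and 221 reads.

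SNORA12 and SNORA79 together held 65.7% of H/ACA reads in T18VN and 74.5% in T18VNN, and 47.1% in T18V. SNORA12, on chromosome 10 (101996913 to 101997059, hg19), had 295, 2411 and 4979 reads, which is 105, 538 and 1385 CPM against 95.6 to 156 CPM in the unanchored libraries. SNORA79 had 225, 1584 and 2905 reads, and its level of 808 CPM in T18VNN compared with 37.9 to 73.1 CPM without an anchor. In both, T18V lay at about the unanchored level and the other anchored libraries lay above it. The ratio of SNORA12 between T18VNN and T18V was 13.2 (counting interval 11.7 to 14.9), and that of SNORA79 was 10.1 (8.81 to 11.6). Both lie within other genes, as do 13 of the 14 H/ACA snoRNAs with 50 reads, and the deposited counts state no use of strand, so reads of the host transcript cannot be told apart from those of the snoRNA. The H/ACA genes that overlap nothing else had a summed ratio of 2.89. Only 1 of them, SNORA25, reached 50 reads. It had 8, 84 and 18 reads in T18V, T18VN and T18VNN, so it was highest in T18VN and not ordered.

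SNORD50A was the only C/D snoRNA ordered downward. It had 6586 reads in T18V, 4560 in T18VN and 2243 in T18VNN, or 2343, 1018 and 624 CPM, against 76.7 to 722 CPM in the unanchored libraries. Its level was thus highest with the shortest anchor and lowest with the longest, the reverse of the U3 copies (slope of -0.97 per anchor base, SE 0.50, edgeR adjusted p = 1). SNORD13, an RNA that guides acetylation of the small ribosomal subunit RNA, had 792, 2609 and 3266 reads. SNORD57 had 2, 50 and 165 reads, a ratio of 64.5 between the ends with a counting interval of 17.6 to 537. Both SNORD50A and SNORD57 overlap another gene, so reads of that gene cannot be told apart from theirs. The U3 copies named above overlap none.

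The scaRNAs differed among themselves in the step at which they were higher. SCARNA9 had 518, 3643 and 3482 reads, or 184, 813 and 968 CPM, and 117 to 1029 CPM in the unanchored libraries. SCARNA4 had 15, 329 and 277 reads, at 5.34, 73.4 and 77.03 CPM, with at most 8.46 CPM without an anchor. T18VN and T18VNN were close to each other in both genes. SCARNA18, in contrast, stood at 20.6, 24.3 and 64.2 CPM, and SCARNA1 at 6.76, 7.59 and 16.7 CPM, with T18VN near T18V. All 10 scaRNAs with 50 reads overlap another gene. Among the Y RNAs, RNY3 had 67, 2362 and 1196 reads, RNY1 60, 662 and 326, RNY4 110, 414 and 317, and RNY5 297, 906 and 579. All 4 Y RNAs were lowest in T18V and highest in T18VN. RNY3 stood at 532 CPM in T12 and 18.1 CPM in T30, so the unanchored libraries spanned both its T18V level of 23.8 CPM and its T18VN level of 527 CPM.

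Genes set apart in T18VNN were counted by a second rule, at least 2-fold above or below both T18V and T18VN on log2(CPM + 1). There were 273 higher (3.3%) and 296 lower (3.58%) of 8264. The same rule gave 175 higher (2.12%) and 703 lower (8.51%) for T18V alone, and 424 higher (5.13%) and 234 lower (2.83%) for T18VN alone, so T18VNN was not the library with most such genes. Of the T18VNN genes, 228 (2.76%) were above and 175 (2.12%) below all 5 other HEK293T libraries. At the edge of the rule, SMG1 (1.00) and DDIT3 lay just inside 1 on the log2 scale and ENTPD6 and UVSSA (1.00) just outside.

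**Figure D4:**
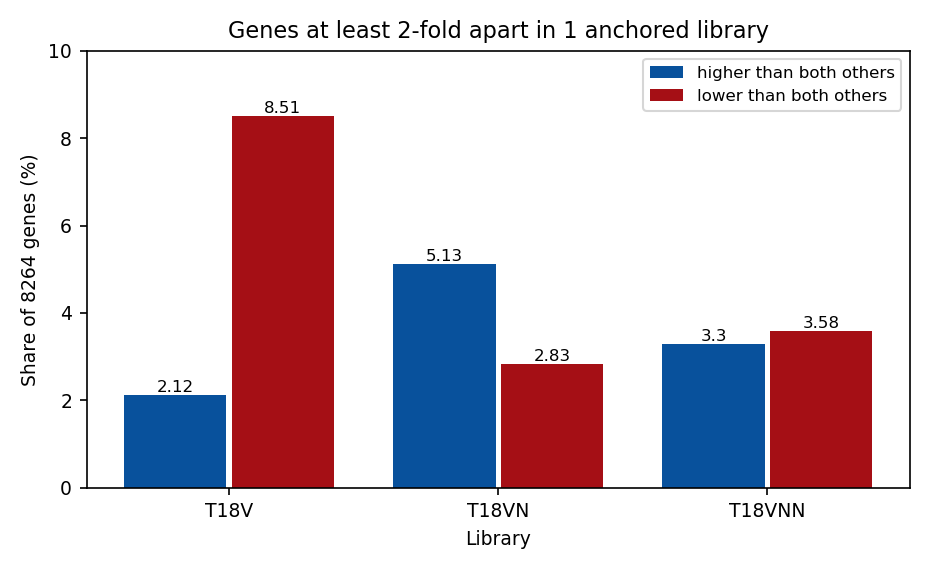
Share of the 8264 genes (%) that were at least 2-fold higher (blue) or lower (red) in 1 anchored library than in both others, for each library. T18V has the largest share on the low side (8.51%), T18VN the largest on the high side (5.13%), and T18VNN is nearly even at 3.3% and 3.58%.

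The makeup of these genes differed by direction. Of the 76 small RNA genes, 33 (43.4%) were higher in T18VNN alone and 3 lower, and the 33 include 19 of 24 snRNAs, 6 of 14 H/ACA snoRNAs, 5 of 14 C/D snoRNAs and 3 of 10 scaRNAs. All 33 were also above every other HEK293T library. However, 20 of the 33, and 16 of the 19 snRNAs, reached 50 reads only in T18VNN, so the choice of genes largely sets these shares. With 50 reads required in T18V or T18VN, a minimum chosen after seeing the data, 13 of 52 small RNA genes and 3 of 8 snRNAs were higher in T18VNN alone, against 115 of 7894 genes in all (1.46%). On the first set of 76 genes, the count without the near-identical SNAR-A copies was 21 of 64 (32.8%). Among small RNAs of that set that overlap no other gene and are not SNAR-A it was 9 of 20. Both counts still hold genes that reached 50 reads only in T18VNN, such as RNU5D-1 and RNU6-1. Protein-coding genes gave 223 higher (2.83%) and 270 lower (3.43%) of 7870.

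PDE6B was the only protein-coding gene to pass the edgeR contrast. PDE6B encodes a subunit of the rod photoreceptor phosphodiesterase and lies on chromosome 4 (619363 to 664681, hg19). It had 294 reads in T18VNN and 0 in each of the other 5 HEK293T libraries, at least 76.6-fold above T18V against a floor of 3 reads per library. PDE6B thus entered the test only through T18VNN, where it was high. Its fitted contrast of 11.1 (SE 1.45, edgeR adjusted p = 0.0443) depends on the prior count, since the other libraries are at 0.

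Of the 440 genes ordered downward, 409 were protein-coding. JAM2, a junctional adhesion molecule, had 121 reads in T18V, 50 in T18VN and 1 in T18VNN, a T18VNN to T18V ratio of 0.00646 with a counting interval of 0.000162 to 0.0367. ZSWIM1 had 121, 3 and 2 reads, although T18 gave 629 and T12 212. For SLC68A1 the 981, 116 and 89 reads placed T18V apart, at 349 CPM against 25.9 and 24.7 CPM and at most 22.1 CPM without an anchor. In the unanchored libraries JAM2 had 0 to 19 reads. The remaining named genes of this group were at least 2-fold lower in T18VNN than in both other anchored libraries: NKX2-2, a homeobox transcription factor, had 83, 114 and 5 reads (29.5, 25.4 and 1.39 CPM), BEGAIN 113, 124 and 14 reads, and ZNF777 94, 122 and 15. For BEGAIN the unanchored libraries, at 3.98 to 5.42 CPM, lay near the 3.89 CPM of T18VNN, and T18V and T18VN, at 40.2 and 27.7 CPM, stood apart. Outside the ordered genes, but also low in T18VNN alone, MED9, a Mediator subunit, had 22, 120 and 3 reads and EXTL2, a glycosyltransferase of heparan sulfate synthesis, 273, 592 and 65. None of these 8 genes passed either edgeR test (NKX2-2 contrast of -4.29, SE 1.17, edgeR adjusted p = 1).

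Messenger RNAs of the reference list are given for comparison. TUBA1B, a tubulin, stood at 18215 CPM in T18V, 13715 in T18VN and 13665 in T18VNN. HSP90AB1, a chaperone, stood at 7308, 7393 and 6135 CPM, and ACTG1, a cytoplasmic actin, at 4672, 5023 and 5970 CPM. Of 12 reference mRNAs, 1 was ordered upward (ACTB, with 129, 622 and 537 reads) and 0 downward, and their median log2 ratio of T18VNN to T18V was -0.12, beside 0.04 over all 8264 genes. That count is near the share over all genes (7.78% upward and 5.32% downward). Other abundant messages differed more: EIF5AL1, which resembles the translation factor gene EIF5A closely enough for reads to be uncertain, stood at 3475, 1799 and 875 CPM (slope of -1.01, SE 0.21, edgeR adjusted p = 0.610, DESeq2 adjusted p = 0.0189), and PPM1G, a phosphatase gene that overlaps another gene, at 99.3, 279 and 693 CPM. Across all those genes the step T18V to T18VN moved 24.2% by 2-fold or more, the step T18VN to T18VNN 18.1%, and the whole span 22.6%.

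The size of the transcript tracked the ratio at the short end only. The 66 genes with transcripts of 200 nt or less had a median log2 ratio of T18VNN to T18V of 1.97, and 25 of them (37.9%) were ordered upward. Of the 66, 23 reached 50 reads only in T18VNN, and the other 43 had a median of 1.25. Between 200 and 500 nt the median was 0.30 (60 genes), and in the 5 longer bins it lay between 0.00 and 0.16. Protein-coding genes of 200 to 500 nt had a median of 0.15 (44 genes). No protein-coding gene with 50 reads had a transcript of 200 nt or less, so size and RNA class cannot be told apart there.

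**Figure D5:**
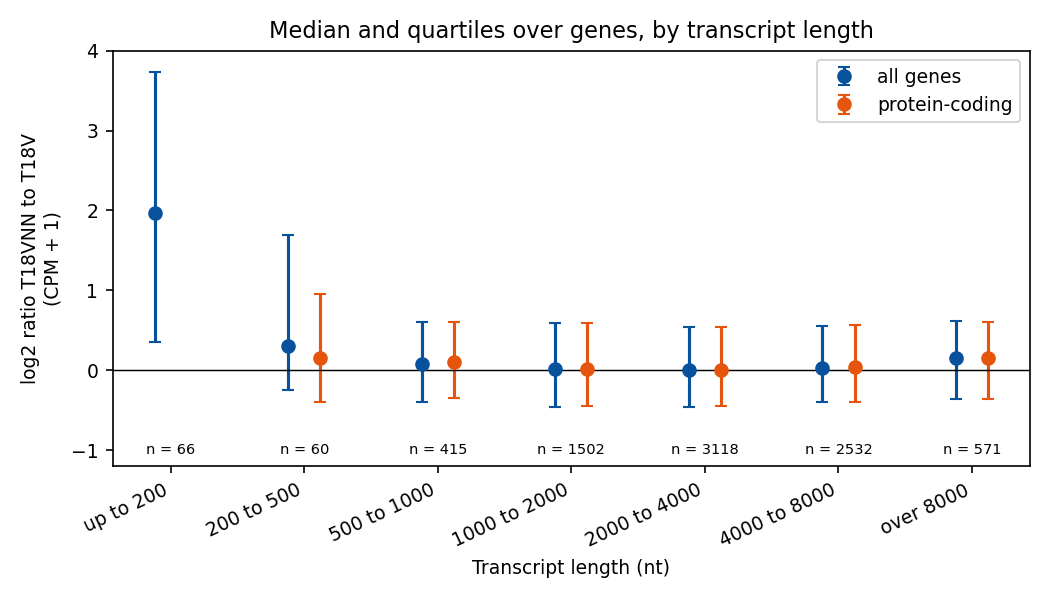
Median log2 ratio of T18VNN to T18V (on CPM + 1) by transcript length (nt) for all genes in blue and protein-coding genes in orange, with quartiles over genes as bars and the number of all genes under each bin. The bin up to 200 nt has a median of 1.97 and all bins above 500 nt lie between 0.00 and 0.16.

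At an equal depth of 2810511 gene reads the expected number of genes with at least 5 reads was 11764 in T18V, 11639 in T18VN and 11947 in T18VNN. The T18VNN surplus over T18V of 183 genes turned to a deficit of 129 when 1 read was enough. Small RNA genes were more numerous with the longest anchor at this depth: 34.9 against 19 C/D snoRNAs, 33.6 against 20 H/ACA snoRNAs and 31.1 against 24 snRNAs in T18VNN and T18V.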

How the data were processed

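Gene counts of 6 HEK293T libraries (T12, T18, T30, T18V, T18VN, T18VNN) were used, with the A549 T12 library for a marker check. Per the file headers, the deposited tables hold a read count per RefSeq transcript and FPM, a signal scaled to the library total. The deposited coverage signal gives 1 value per percentile of the transcript body. FastQC 0.11.8, cutadapt 2.10, Trimmomatic 0.39, HISAT2 2.2.1 and SAMtools are named in the submitters' processing notes with GRCh37/hg19; how reads with several matches or strand were handled is not given in the sources used here. Library totals were the deposited count divided by FPM. Coverage of T18VN and the poly(T) length files were not used here.

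Of 61177 transcript entries, 60127 (98.3%) matched a symbol in the RefSeq gene table; the transcript with most reads was kept for each of 26621 genes, of which 9052 overlap another gene. Reads are repeated between overlapping transcripts; the 45S, 18S and 28S ribosomal entries are such a case. CPM used gene reads as the denominator, and log2 values are log2(CPM + 1), which understates changes of low genes. edgeR 4.0.16 (filterByExpr, TMM, quasi-likelihood F-test, BH) in R 4.3.3 gave 2 fits on the 6 libraries, with primer class as a term: a slope on anchor bases, and T18VNN against the mean of T18V and T18VN. DESeq2 1.42.0 was an alternative. The fits were tested on simulated data. SE is the size of the estimate divided by the square root of F. Intervals of ratios are exact at 95% and, like the Wilson intervals, cover counting error only, as reads carry no molecular identifiers. With 1 library per primer, p-values measure the spread between primers.

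Named genes needed 100 reads, no overlap and 1 sequence name: the 6 at each end of the ordered genes and of the T18VNN-alone genes, plus, per class or list and with overlap allowed, the 3 with most reads and those with the largest and smallest ratio. RNU5A-1, RNU5B-1, RNU5F-1, RNU4ATAC, SNORD3C, SNORD57, SNORD79, SNORA25, SNORA41, RNY4, H1-4, H2BC5, H4C5, SCARNA1, EIF5AL1, PPM1G and the U1 and U6 copies other than RNU6-1 were named after their values were seen. The members and lists were chosen with earlier results of these data known.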

Additional observations from a re-analysis of the deposited data

How the results depend on the processing

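No paired analysis was possible because each anchored primer has 1 library and the anchored groups share no second replicate number. The number of genes called for the slope was 0; it was 20 with DESeq2, 39 with no filter on low counts, 5 in the anchored libraries only (1 residual degree of freedom), and 0 to 7 when 1 library was left out. The 5 calls for T18VNN became 33 with no filter and 0 to 17 when 1 library was left out. Of the 643 genes ordered upward, 292 were left with at least 200 reads and 427 without overlapping genes, and of the 440 downward 190 were left with at least 200 reads. Genes higher in T18VNN alone (273) numbered 499 with at least 20 reads and 82 with 200; those lower (296) numbered 511, 80, and 155 with a pseudocount of 5 CPM. With 50 reads required in T18V or T18VN, chosen after seeing the data, the count of genes higher in T18VNN alone was 115. Fewer genes are tested with the 200-read minimum and without overlapping genes; otherwise the cause was not tested.

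The ratio of class shares, T18VNN over T18V, changed as follows with the library total as denominator: snRNA 2.53 to 1.87, H/ACA 7.49 to 5.54, C/D 0.985 to 0.728, scaRNA 5.26 to 3.89, Y RNA 3.54 to 2.62, rRNA 1.96 to 1.45, lncRNA 1.07 to 0.790 and protein-coding 0.989 to 0.732. Without the gene with most reads it was 4.29 for snRNA, 5.41 for H/ACA, 5.03 for C/D, 2.05 for Y RNA, 1.04 for lncRNA and 0.997 for protein-coding. With genes that overlap no other it was 2.89 for H/ACA, 5.50 for C/D, 2.04 for rRNA, 0.933 for lncRNA and 0.994 for protein-coding. There was no value for scaRNA, of which 27 of 28 genes overlap another. The surplus of 183 genes detected was -129 at 1 read and 299 at 10 reads. Of 672 alternative values for the log2 ratio of 120 named genes, 669 kept their sign. Depth limits single genes: 3 reads are the floor in each library.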

Other observations

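Replication-dependent histone messages, most of which end in a stem-loop in place of a poly(A) tail, were few in number and uneven. Of 69 such genes, 50 had no read in any anchored library and 8 reached 50 reads. Of these 8, 4 reached 50 reads only in T18VNN, which the choice of genes then places high. Of the other 4, 2 were ordered upward and 1 was higher in T18VNN alone. H1-3, a linker histone, had 29, 86 and 220 reads in T18V, T18VN and T18VNN, and H1-4 had 1, 15 and 75. H4C5 had 0, 0 and 84 reads and H2BC5 1, 0 and 61, and neither had more than 2 reads in any unanchored library. H4C3 held most reads of the list and went the other way, with 1186, 1826 and 897 reads, so the summed share differed little, at 0.0467%, 0.0540% and 0.0546%. None passed either edgeR test at an adjusted p of 0.05 (H1-3 contrast of 2.02, SE 1.10, edgeR adjusted p = 1).

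Ribosomal protein messages, short and abundant, gave 11 of 80 genes ordered upward and 1 downward, with a median log2 ratio of 0.32 (13.8% and 1.25%, beside 7.78% and 5.32% over all genes). RPS28 had 611, 2636 and 4069 reads, or 217, 588 and 1132 CPM, while RPL27 stood at 799, 814 and 232 CPM. RPS29 was nearly level, at 3787, 4474 and 3845 CPM. Respiratory chain subunits gave 5 of 74 upward and 4 downward with a median of 0.03, polyadenylation and poly(A)-binding factors 3 of 34 upward and 0 downward with a median of 0.21, and snoRNA host genes 2 of 18 upward and 1 downward with a median of -0.23. As shares these are 6.76%, 8.82% and 11.1% upward; the first and second are near the 7.78% over all genes, and the last rests on 2 genes. MALAT1, a nuclear lncRNA whose 3′ end is protected by a triple helix, had 1153, 3001 and 3347 reads, or 410, 670 and 931 CPM, and at most 359 CPM with unanchored primers. NEAT1 was at 213, 126 and 165 CPM. BCYRN1, a lncRNA of 200 nt with an internal A-rich stretch, was at 496, 490 and 1247 CPM, within the unanchored range of 586 to 3226 CPM only in T18VNN. MALAT1, NEAT1 and BCYRN1 overlap other entries of the annotation.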
